A study of Mus musculus with 59 samples.

Results

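The cerebellum of wildtype (WT) mice was compared with the brainstem, hippocampus, striatum, and cortex by RNA-seq. The members are the 4 WT cerebellum libraries of a series of 59, chosen by their labels, and each was set against 16 other WT libraries, 4 in each of the other 4 regions. By their labels the 20 libraries come from 4 mice, WT-70 and WT-77 together with WT-220 and WT-221 (the order in which values per mouse are given), and each library is 1 mouse and 1 region, though 1 cortical library went against its mouse number (below). All 4 mice were labelled as wildtype animals of the C57BL/6 strain, aged 10 weeks, and polyA RNA was sequenced. The series was made to compare WT mice with knockin mice that model spinocerebellar ataxia type 1, a dominant ataxia caused by a lengthened CAG repeat in Atxn1. The mutant libraries, 20 from Atxn1_154Q/2Q mice and 19 from Atxn1_154Q[V591A;S602D]/2Q mice of the same labelled strain and age, are used only in the last comparison. A gene was counted as regional when it differed in the same direction from all 4 other regions, each at an adjusted p value under 0.05 by edgeR's quasi-likelihood test. The 4 comparisons share the cerebellar libraries and are therefore not independent of each other. Because whole tissue was measured, fewer cells of a type and less RNA per cell cannot be told apart.

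The cerebellar cortex is built of few kinds of neuron in a repeated circuit. Small, densely packed granule cells use glutamate and send parallel fibers to the dendrites of Purkinje cells, which use GABA and carry the only output of the cortex. Stellate and basket cells of the molecular layer and Golgi cells of the granular layer are inhibitory, unipolar brush cells are excitatory, and Bergmann glia ensheath the Purkinje cell dendrites. Parallel fibers release cerebellins, which link presynaptic neurexins to receptors on the Purkinje cell. Transcription factors set up these cell types, channels and receptors shape their firing and their input, and transmitters and their transporters carry signals between them.

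The starts of 5 genes on which the results below turn are shown here, taken from RefSeq for GRCm38.p6. They are the promoters of the granule cell genes Gabra6 and Cbln3, the Purkinje cell gene Pcp2, the transcription factor gene Barhl2, which was far higher in the cerebellum than elsewhere, and Gabra5, a receptor gene that was low there. Each is the 250 bases before the RefSeq start, all on the minus strand of the genome, and is written 5′ to 3′ on the strand of the gene. Capitals mark matches to 5 short motifs searched on both strands: CAGATG and CAGCTG (forms of the E-box, to which bHLH factors bind), AGGTCA (the half-site of nuclear receptors such as Rora), TTGGCA (the half-site of NFI factors, here read as its complement TGCCAA), and TAATTA (a homeodomain core). Gabra6 lies at chr11:42321073-42321322 and Cbln3 at chr14:55884257-55884506. Pcp2 lies at chr8:3625548-3625797, Barhl2 at chr5:106458167-106458416, and Gabra5 at chr7:57510060-57510309.
Gabra6: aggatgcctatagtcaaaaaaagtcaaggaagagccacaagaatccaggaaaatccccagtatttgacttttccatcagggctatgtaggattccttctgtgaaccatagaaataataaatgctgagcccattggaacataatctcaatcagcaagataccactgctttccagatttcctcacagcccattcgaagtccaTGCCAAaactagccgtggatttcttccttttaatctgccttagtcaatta
Cbln3: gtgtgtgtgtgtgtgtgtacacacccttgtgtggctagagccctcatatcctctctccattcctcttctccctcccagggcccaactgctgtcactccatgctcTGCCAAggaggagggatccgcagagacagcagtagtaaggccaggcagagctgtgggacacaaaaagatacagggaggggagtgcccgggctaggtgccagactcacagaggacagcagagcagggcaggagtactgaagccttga
Pcp2: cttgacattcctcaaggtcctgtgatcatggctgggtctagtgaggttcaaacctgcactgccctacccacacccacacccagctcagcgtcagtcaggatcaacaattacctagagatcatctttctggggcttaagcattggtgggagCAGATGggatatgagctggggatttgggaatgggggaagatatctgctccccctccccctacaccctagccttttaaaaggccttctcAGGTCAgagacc
Barhl2: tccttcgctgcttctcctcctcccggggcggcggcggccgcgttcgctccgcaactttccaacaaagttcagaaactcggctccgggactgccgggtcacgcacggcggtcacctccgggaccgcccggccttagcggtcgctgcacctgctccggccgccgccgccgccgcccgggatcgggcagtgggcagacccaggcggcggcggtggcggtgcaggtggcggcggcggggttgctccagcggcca
Gabra5: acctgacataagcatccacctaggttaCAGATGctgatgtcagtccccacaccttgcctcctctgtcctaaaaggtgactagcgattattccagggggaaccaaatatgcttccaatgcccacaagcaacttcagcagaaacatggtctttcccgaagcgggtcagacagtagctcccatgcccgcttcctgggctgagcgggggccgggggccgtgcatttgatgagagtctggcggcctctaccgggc

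The Gabra6 and Cbln3 stretches each held TGCCAA, 50 and 146 bases before the start. The Pcp2 stretch held CAGATG 100 bases and AGGTCA 12 bases before it, the Gabra5 stretch held CAGATG 223 bases before it, and the Barhl2 stretch held none of these letters. Such short motifs are common. AGGTCA occurred in 14.4% of 591 promoters of genes at least 2-fold higher in the cerebellum than in all 4 regions, 11% of 855 promoters of genes at least 2-fold lower, 11.1% of 14188 promoters of all genes tested, and 12.9% of all 20576 promoters. In the same order, TTGGCA occurred in 13.9%, 11.9%, 10.8%, and 12.2% of them, CAGATG in 14.7%, 13.2%, 11.3%, and 13.5%, CAGCTG in 13.2%, 17.9%, 12.6%, and 12.4%, and TAATTA in 4.40%, 4.56%, 2.97%, and 4.62%. These shares were not tested. A promoter was found for 53.2% of the higher and 64.8% of the lower genes, and a match describes the letters in this window and does not show a binding site.

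The cerebellar libraries held 64.4 to 91.0 M counted read pairs (M, 1e+06), the brainstem and hippocampal libraries 71.6 to 112 M, and the striatal and cortical libraries 33.0 to 54.7 M. Several libraries stood apart. The WT cortex library of WT-221 held Xist, which is transcribed from the inactive X chromosome, at 473 counts per 1e+06 counted pairs (CPM) and the Y-linked Ddx3y at 0.903 CPM. The other 19 WT libraries, including the other 4 of WT-221, held at most 5.90 CPM of Xist and at least 62.2 CPM of Ddx3y, so this library went against its mouse number. Without it, the regional genes numbered 3480 higher and 3162 lower, in place of 3800 and 2990. Counts moved about as far without the cortex of WT-77 (3475 and 3196) or of WT-220 (3476 and 3167). Without that of WT-70 they were 3689 and 3015. In the striatum, the library of WT-220 held 6 striatal neuron markers at a summed 4617 CPM and the other 3 libraries held them at 1384 to 1856 CPM. Those 3 libraries carried the 6 markers of forebrain excitatory neurons at 4663 to 5091 CPM, and the cortical libraries carried them at 4973 to 6374 CPM. Without both the cortical library of WT-221 and the striatal library of WT-220, 3657 genes were higher and 3384 were lower. Choroid plexus RNA, led by Ttr, varied between libraries, and the 6 markers summed to 26.4 to 2870 CPM in the cerebellum. With the Ttr level as a covariate, 3590 genes were higher and 2950 lower. Leaving out this pair of libraries and the Ttr covariate were chosen after the data were seen. So was the block by mouse without the cortex of WT-221, given below.

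The 3 genes that mark the cerebellum were high in its libraries and far lower elsewhere. Pcp2 (chromosome 8, 3623371 to 3625545), a Purkinje cell gene that encodes a modulator of G protein signaling, was at 148, 85.0, 78.1, and 72.7 CPM in the 4 mice. In the brainstem of the same mice, in the same order, it was at 1.51, 2.36, 0.649, and 1.94 CPM, and in the other 3 regions it was at most 1.90 CPM. Its log2 difference from the brainstem was 5.86 ± 0.36 (SE). Gabra6 (chromosome 11, 42306437 to 42321072), the granule cell subunit of the GABA-A receptor, was at 890, 866, 1098, and 1002 CPM. Its brainstem libraries held 11.7, 27.9, 6.89, and 24.1 CPM, and the other 12 libraries held 5.63 CPM or less. Cbln3 (chromosome 14, 55878913 to 55884392), a cerebellin of granule cells, was at 1500, 1451, 1684, and 1507 CPM, against 22.0, 49.1, 14.4, and 38.0 CPM in the brainstem. No library of another region reached the lowest cerebellar library for any of the 3 genes, and the adjusted p was at most 1.92e-08 over their 4 comparisons. The tissue label of the 4 libraries therefore matched their markers.

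**Figure D1:**
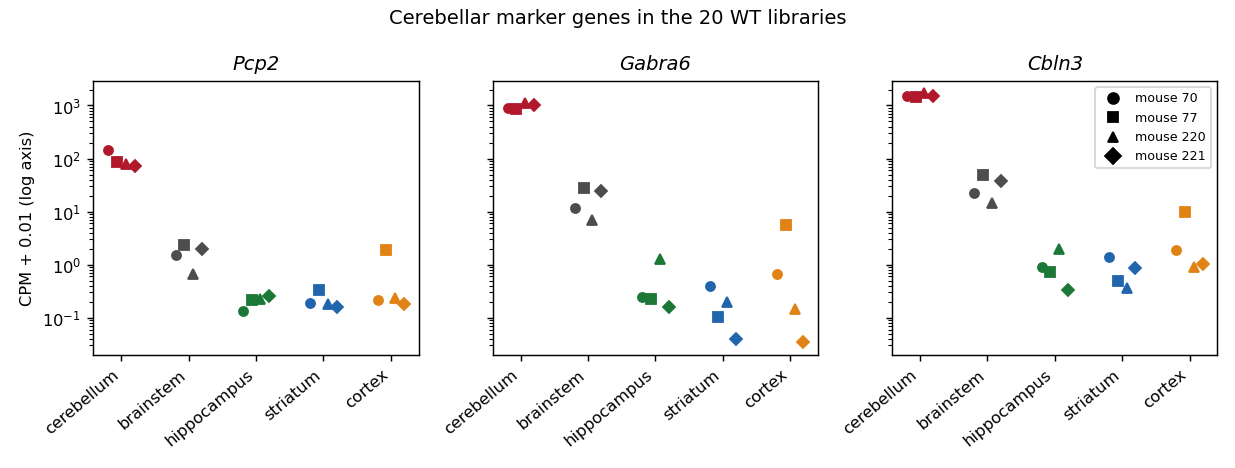
Points are the CPM of Pcp2, Gabra6, and Cbln3 in each WT library by region, 4 libraries a region, on a logarithmic axis with 0.01 CPM added. All 4 cerebellar libraries lie above every other library for each gene, and the brainstem libraries lie above most hippocampal, striatal, and cortical libraries.

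The brainstem values of these genes differed between the 4 libraries. Taken as a percentage of the cerebellar mean, Cbln3 in the brainstem was at 1.43, 3.20, 0.936, and 2.48% in the 4 mice, and Pcp2 was at 1.57, 2.46, 0.678, and 2.03%. Cnpy1 and Ppp1r17, which are also named below, were at 1.16, 3.03, 0.385, and 2.38% and at 1.52, 2.97, 0.652, and 2.04%. Of Cbln3 and the 8 genes with the largest differences upward named below, 9 in all, the libraries of WT-77 and WT-221 were highest and that of WT-220 lowest in 8, and in Gm13944 that of WT-70 exceeded that of WT-221. In the hippocampus the order was another, with Cbln3 highest in WT-220 at 1.97 CPM and lowest in WT-221 at 0.326 CPM. With 1 brainstem library a mouse, mouse and dissection cannot be told apart. The cortical library of WT-77 also held more Cbln3, Gabra6, Pcp2, and Ppp1r17 than the other cortical libraries, with 9.85 CPM of Cbln3 against 0.912 to 1.87 CPM. It did not hold more of every granule cell or Purkinje cell marker. The part that RNA from cerebellar tissue had in these values was not tested.

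Of 22200 genes tested, 14513 (65.4%) differed between the cerebellum and the brainstem, 7416 higher in the cerebellum (33.4%) and 7097 lower (32%). The hippocampus differed in 14120 genes (63.6%), 7282 higher (32.8%) and 6838 lower (30.8%). The striatum differed in 15950 (71.8%), 7977 higher (35.9%) and 7973 lower (35.9%), and the cortex in 15598 (70.3%), 8125 higher (36.6%) and 7473 lower (33.7%). Regional genes numbered 3800 higher (17.1%) and 2990 lower (13.5%), 30.6% together, and of 16251 protein-coding genes 2907 were higher (17.9%) and 2510 lower (15.4%). Of these, 1112 (5.01%) were at least 2-fold higher than in every other region and 1319 (5.94%) were at least 2-fold lower. Every cerebellar library lay above all 16 others in 3182 genes (14.3%) and below all of them in 2511 (11.3%). Where all 4 differences were tested against a 2-fold change in place of no change, 723 genes were higher and 769 lower.

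The 58 families of transcription factors, channels, receptors, and transmitters held 781 annotated members, 681 of which were abundant enough to be tested. Regional calls were made in 108 members higher (15.9%) and 183 lower (26.9%). Over all genes tested the shares were 17.1% and 13.5%, and every count of family members below is to be read beside these. The classes differed in direction. Transcription factors, 266 tested of 333, had 50 higher (18.8%) and 34 lower (12.8%), which lies near the shares over all genes. Channels, 168 tested of 183, had 30 higher (17.9%) and 54 lower (32.1%). Receptors, 172 tested of 183, had 19 higher (11%) and 71 lower (41.3%). Transmitter genes, 75 tested of 82, had 9 higher (12%) and 24 lower (32%). The median log2 difference of the receptors was -1.15 from the brainstem, -1.31 from the hippocampus, -1.30 from the striatum, and -1.18 from the cortex. Over all genes tested these medians were 0.00, 0.03, 0.00, and 0.05. Channels had medians of -0.60, -0.29, -0.46, and -0.40, transmitter genes -1.98, -0.50, -0.80, and -0.74, and transcription factors -0.07, 0.04, 0.10, and 0.09.

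**Figure D2:**
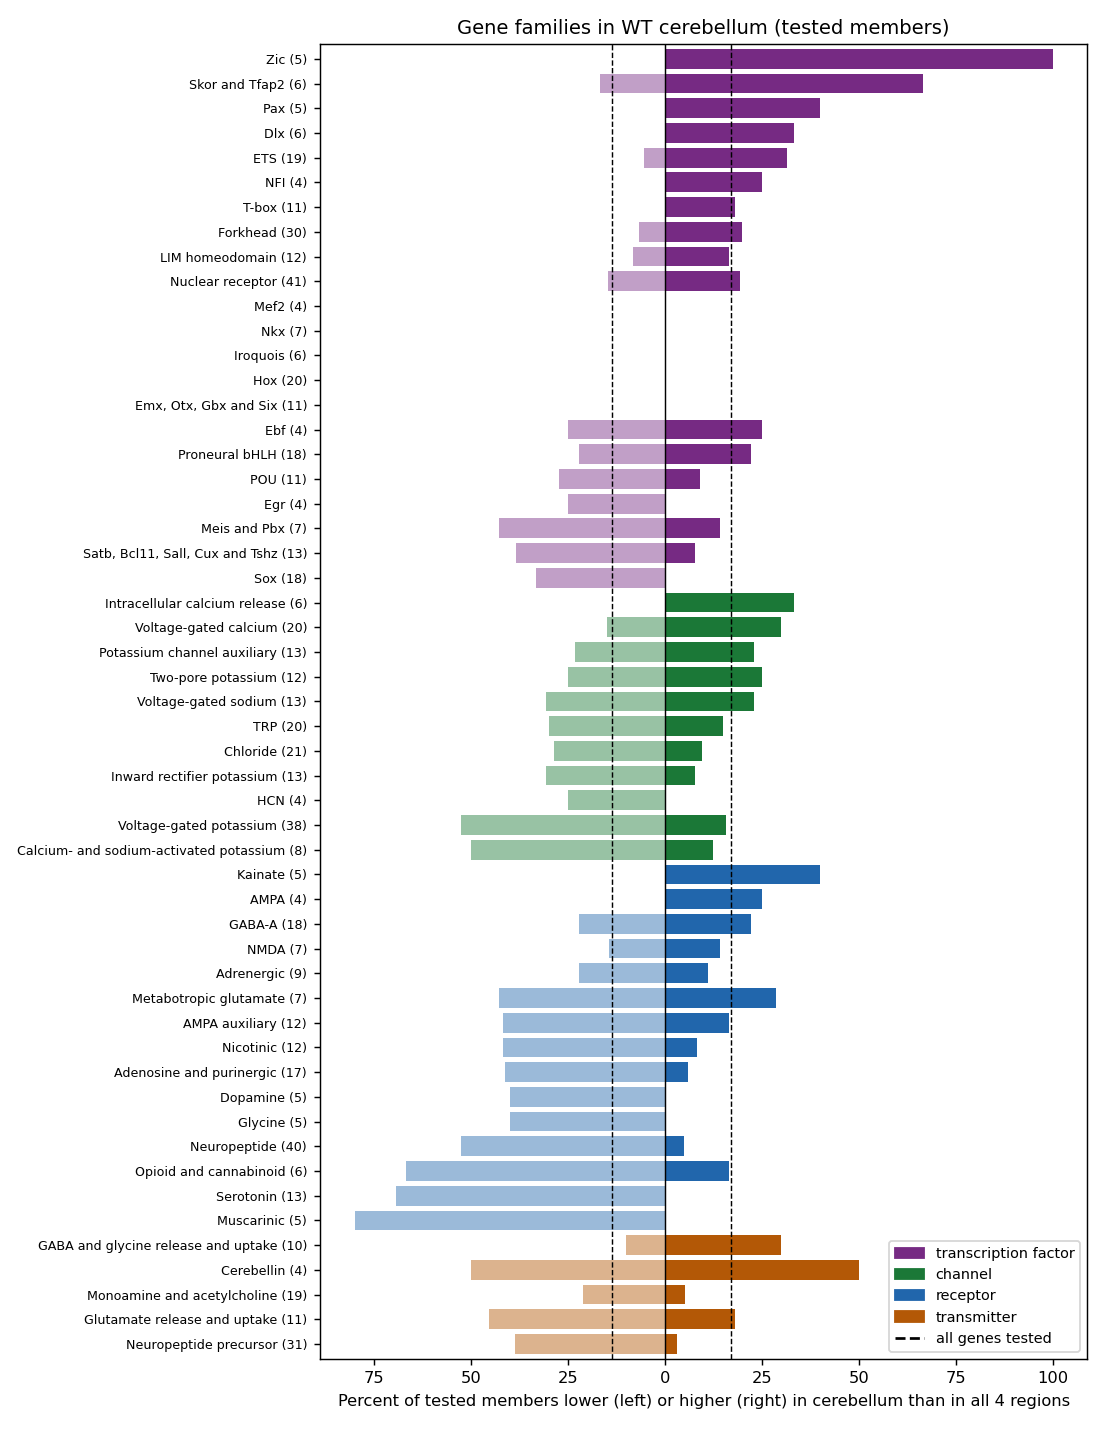
Bars give the percentage of tested members of each family, whose number stands in parentheses, that were higher (to the right) or lower (to the left) in the WT cerebellum than in all 4 other regions, for families with at least 4 tested members, and dashed lines give the share over all genes tested (17.1% and 13.5%). Zic factors stand only on the higher side, and serotonin, muscarinic, and neuropeptide receptors stand wholly or mostly on the lower side.

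Several families of transcription factors were represented among the higher genes. The Zic genes Zic1, Zic2, Zic4, and Zic5, which encode zinc finger factors of granule cells and their precursors, were higher. Zic1 was at 1096, 1084, 1284, and 1254 CPM in the cerebellum of the 4 mice and 85.4, 113, 88.0, and 117 CPM in the brainstem. Zic2 was at 267, 280, 279, and 285 CPM in the cerebellum and at most 23.4 CPM in any other library. The smallest of the 4 log2 differences was 3.89 for Zic2, 3.55 for Zic1, 3.40 for Zic5, and 2.43 for Zic4. In each of these, every cerebellar library lay above all others.

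Both engrailed genes and both BarH-like genes were also higher. En2, a homeodomain factor that patterns the midbrain and hindbrain, was at 180, 157, 171, and 156 CPM in the cerebellum, 3.99 to 7.53 CPM in the brainstem, and 2.26 CPM or less elsewhere. Its relative En1 was at 3.99, 2.92, 3.98, and 3.93 CPM, and it exceeded the brainstem by 1.18 ± 0.19 (SE) on the log2 scale, though it did not pass in all 4 comparisons with DESeq2. Barhl2, a homeodomain factor related to Drosophila BarH, was at 36.7, 38.9, 38.3, and 39.0 CPM in the cerebellum. Its brainstem libraries held 0.738, 1.54, 0.815, and 1.48 CPM, and no other library exceeded 0.631 CPM. Barhl1, a factor of granule cells, was at 12.4 ± 0.574 CPM (SD, n = 4) in the cerebellum and 3.42 CPM on average in the brainstem.

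Among proneural bHLH factors, Neurod1, which drives granule cell differentiation, was at 365, 359, 423, and 397 CPM in the cerebellum. The nearest region was the hippocampus, at 21.0 to 25.1 CPM, and the log2 difference from it was 4.08 ± 0.28 (SE). Atoh7, Nhlh2, and Atoh8 were higher too, and Nhlh1, Neurod4, Olig1, and Olig2 were lower, of 18 tested members, but the calls of Atoh8 and Nhlh1 were lost under 6 alternatives each. Eomes, a T-box factor of unipolar brush cells, was at 22.9, 22.5, 36.0, and 41.3 CPM in the 4 mice, and the cerebella of WT-220 and WT-221 were thus above the other two. Every other library held 2.95 CPM or less.

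Further regional factors included members of the LIM, AP-2, nuclear receptor, Pax, and ETS families. Of 41 tested nuclear receptor genes 8 were higher (19.5%) and 6 lower (14.6%), near the shares over all genes of 17.1% and 13.5%. Lhx1 and Lhx5, LIM homeodomain factors of Purkinje cell development, exceeded the brainstem by 2.91 and 1.26 on the log2 scale and were at most 0.476 CPM on average in the other regions. Skor2, a corepressor of Purkinje cells, was at 15.0 ± 0.857 CPM (SD, n = 4) against 2.53 ± 0.459 CPM in the brainstem. Tfap2b and Tfap2a, which mark inhibitory lineages of the cerebellum, averaged 73.3 and 11.6 CPM in the cerebellum and 13.7 and 3.33 CPM in the brainstem. Rora, the nuclear receptor that is lost in the staggerer mouse, averaged 473 ± 41.7 CPM (SD, n = 4) against 113 ± 11.3 CPM in the brainstem. Its relative Rorb was lower. Pax6 averaged 121 CPM in the cerebellum and 10.4 to 12.1 CPM in each other region, and Pax3 averaged 9.02 CPM against 2.58 CPM in the brainstem. Etv1, an ETS factor of granule cells, averaged 600 CPM in the cerebellum and 138 CPM or less elsewhere. All of the higher genes named here passed in all 4 comparisons, with adjusted p values of at most 4.69e-09.

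The lower transcription factors with the largest differences included Lhx2, Meis2, and Bcl11b. Lhx2, a selector of the telencephalon, was at 0.0593, 0.152, 0.0549, and 0.0798 CPM in the cerebellum, 2.22 to 3.07 CPM in the brainstem, and 49.5 to 93.3 CPM in the 3 forebrain regions. Bcl11b, a factor of cortical and striatal projection neurons, was at 1.67, 1.49, 1.30, and 1.14 CPM against 10.9 to 12.4 CPM in the brainstem and 43.9 to 230 CPM in the forebrain regions. Its relative Bcl11a differed less, with a smallest log2 difference of -0.29. Meis2, a homeodomain factor of striatal and other neurons, was at 5.07 to 6.67 CPM in the cerebellum and 46.5 CPM or more in every other library, and its relative Meis1 was higher in the cerebellum, by 0.76 or more on the log2 scale. None of the 18 tested Sox genes was higher and 6 were lower, Sox10 and Sox8 of the oligodendrocyte lineage among them. Tfap2c had no count in any cerebellar library, which at 3 counts a library allows up to 0.0466 CPM, and it was at 0.0381 to 0.210 CPM on average elsewhere. That bound lies above the lowest of these means, so its call as lower sits at the floor of the counts.

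Some factors differed from the forebrain regions and were not regional. In some of their families other members were regional. Higher members numbered 2 of 5 tested in Pax (40%), 2 of 6 in Dlx (33.3%), and 2 of 11 in T-box (18.2%). Over all genes the share was 17.1%. Those of Dlx were Dlx3 and Dlx4, at 0.472 and 1.20 CPM on average in the cerebellum, against at most 0.134 and 0.419 CPM elsewhere. All 20 tested Hox genes were lower in the cerebellum than in the brainstem, with a median log2 difference of -7.78, and Hoxb5 averaged 35.7 CPM there and 0.0994 CPM in the cerebellum. Irx1 and Irx5, Iroquois factors of the hindbrain, were higher than in the 3 forebrain regions, but their log2 differences from the brainstem were 0.06 (95% interval -0.31 to 0.42) and 0.07 (-0.17 to 0.31). Pax2 averaged 8.96 CPM in the cerebellum, 24.1 CPM in the brainstem, and at most 0.569 CPM in the forebrain regions. The forebrain factors Emx2, Dlx1, and Tbr1 were lower than in all 3 forebrain regions. They were at or below 0.768 CPM on average in both the cerebellum and the brainstem. Tbr1 is also 1 of the forebrain excitatory neuron markers whose sums in the striatal libraries are given above. Egr1, an immediate early gene, averaged 31.1 CPM in the cerebellum and 32.6 CPM in the brainstem, against 188 to 482 CPM in the forebrain regions, and Egr3 was lower than in all 4.

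**Figure D3:**
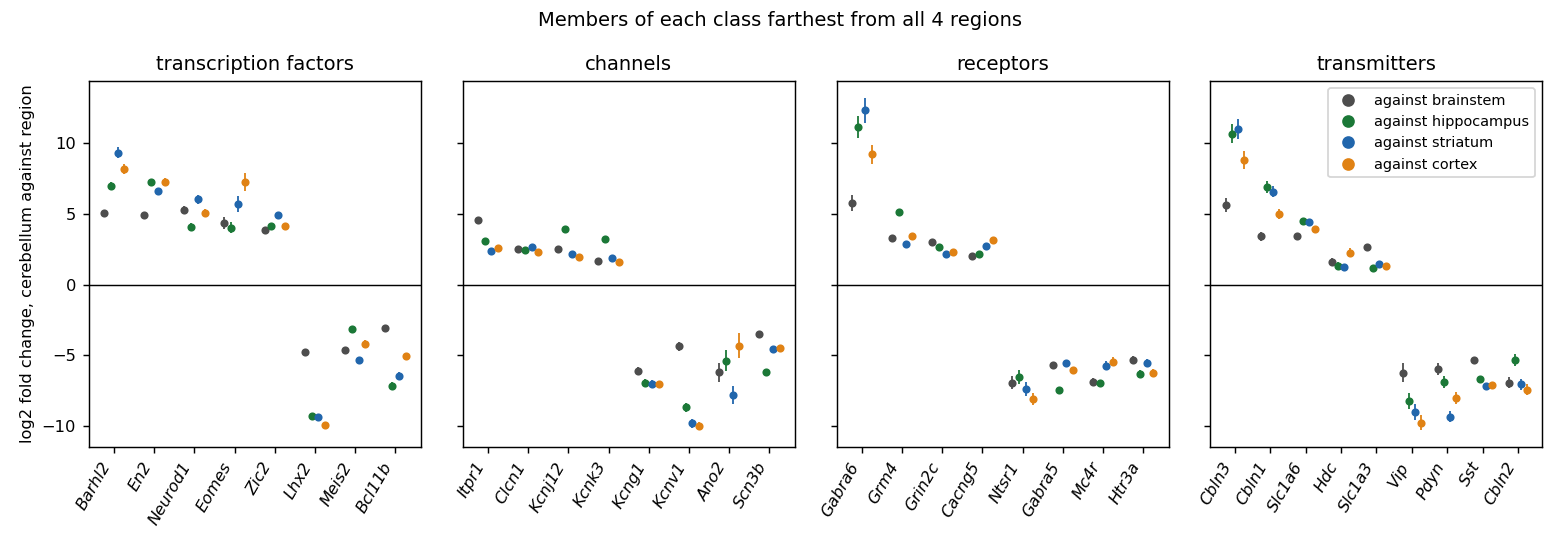
Each point is the log2 difference of the WT cerebellum from 1 other region for the genes named by rule and reported here, by class, with bars of 1 SE. Points above 0 are higher in the cerebellum, and all 4 points of each gene lie on the same side.

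Among channels, the largest difference upward was that of a gene for calcium release. Itpr1, the receptor for inositol trisphosphate that releases calcium from the endoplasmic reticulum, was at 3767, 3322, 3607, and 4067 CPM in the cerebellum of the 4 mice. The brainstem libraries held 122 to 194 CPM and the hippocampal ones 355 to 501 CPM, while the striatum was at 639 to 784 CPM and the cortex at 520 to 748 CPM. The nearest region was the striatum, with a log2 difference of 2.37 ± 0.15 (SE). Of 20 tested TRP cation channel genes 3 were higher and 6 lower, and Trpc7 and Trpc4 are examples in that order. Itpr3 was higher as well, at 18.4 ± 2.3 CPM (SD, n = 4) against 9.12 CPM or less on average elsewhere, so that 2 of 6 tested genes for calcium release passed upward and none downward.

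The voltage-gated calcium channels had 6 of 20 tested members higher and 3 lower. Cacna1a, which encodes the P/Q-type pore, averaged 391 ± 25 CPM (SD, n = 4) in the cerebellum and 112 to 146 CPM in the other regions. Cacna1g, a T-type pore, averaged 301 CPM against 56.0 to 102 CPM, and the auxiliary subunit gene Cacnb4 averaged 470 CPM against 157 to 255 CPM. Cacna1h, another T-type pore, was lower, with a smallest log2 difference of -2.84, and Cacnb1 was lower by 1.25 or more on that scale. Per length, Cacnb4, Cacna1a, and Cacna1g were the most abundant members in the cerebellum, at 52.5, 34.3, and 29.7 fragments per kilobase and 1e+06 counts (FPKM). In the cortex the highest was Cacnb3, at 71.1 FPKM there and 10.3 FPKM in the cerebellum.

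The voltage-gated potassium channels had 6 of 38 tested members higher and 20 lower. The higher ones included Kcnc1, which serves fast spiking, Kcnd2 and Kcnd3, which carry the A-type current, and the modifier subunits Kcng4 and Kcnv2. Kcng1, an electrically silent modifier subunit, was at 0.415, 0.120, 0.154, and 0.346 CPM in the cerebellum and at 15.7 CPM or more in every other library. Kcnv1, another silent subunit, was at 0.109 to 0.146 CPM, against 2.47 to 3.07 CPM in the brainstem and 45.0 to 151 CPM in the forebrain regions. Kcnq5, of the M-current family, averaged 2.15 CPM against 19.1 to 106 CPM, and Kcnq3 was lower as well. Kcna1 and Kcna2, of the axonal Kv1 channels, exceeded all 3 forebrain regions and were lower than in the brainstem, by 0.57 ± 0.18 and 0.39 ± 0.14 (SE) on the log2 scale.

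Other channel families gave smaller counts. Kcnj12, an inward rectifier, was at 63.1, 67.2, 72.3, and 70.3 CPM in the cerebellum and at most 18.8 CPM in any other library, and it was the only 1 of 13 tested inward rectifiers that was higher, with 4 lower. Kcnk3, a two-pore leak channel, was at 92.8, 81.3, 92.3, and 86.5 CPM against 7.98 to 32.3 CPM elsewhere. Clcn1, a chloride channel best known from skeletal muscle, was at 12.7, 14.6, 17.4, and 15.8 CPM against 1.78 to 3.32 CPM. Of 21 tested chloride channel genes 2 were higher and 6 lower. Kcnt1, a sodium-activated potassium channel, averaged 334 CPM in the cerebellum and at most 154 CPM elsewhere, and it rose while 4 of the 8 tested members of its family fell.

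The sodium channels were split, with 3 of 13 tested members higher and 4 lower. Scn2a and Scn2b were higher by at least 0.43 and 0.70 on the log2 scale. Scn3b, an auxiliary subunit, was at 4.79, 4.0, 3.90, and 5.12 CPM in the cerebellum, 46.4 to 51.8 CPM in the brainstem, and 79.8 to 367 CPM in the forebrain regions. The pore subunit Scn3a averaged 3.56 ± 0.158 CPM (SD, n = 4) against 36.8 CPM or more in every other region. Ano2, a calcium-activated chloride channel, was at 0, 0.0652, 0.0110, and 0.266 CPM in the cerebellum and 0.992 CPM or more in every other library, and its fitted log2 differences are imprecise, with SE of up to 0.88.

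Receptors were the class with the most regional members downward, and several glutamate receptor families had members in both directions. Of 7 tested metabotropic receptor genes 2 were higher and 3 lower, of 12 auxiliary AMPA genes 2 and 5, and of 7 NMDA genes 1 and 1. Of 5 tested kainate genes 2 were higher and of 4 tested AMPA genes 1 was, with none lower in either family. Grm4, a presynaptic receptor of parallel fibers, was at 338, 366, 388, and 336 CPM in the cerebellum of the 4 mice and at 7.83 to 64.6 CPM in all other libraries. Grm5, a group I receptor, was lower, at 11 ± 1.25 CPM (SD, n = 4) against 91.0 to 324 CPM, and Grm3 and Grm7 were lower too. Per length, Grm5 stood at 1.08 FPKM in the cerebellum and at 31.6 FPKM in the hippocampus.

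Grin2c, an NMDA receptor subunit of mature granule cells, was at 258, 302, 277, and 257 CPM in the cerebellum of the 4 mice against 27.7 to 70.3 CPM elsewhere. Grid1, of the delta receptor family, was lower than in all 4 regions. Grin2b was lower, at 29.9 ± 3.15 CPM (SD, n = 4) against 78.1 to 639 CPM. Per length, Grin2c was the most abundant of 7 NMDA subunits in the cerebellum, at 54.2 FPKM, ahead of the obligatory Grin1 at 16.5 FPKM. In the hippocampus Grin2b stood at 25.7 FPKM and Grin2c at 8.66 FPKM.

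Of the AMPA receptor genes, Gria4 was higher, at 671 ± 42.2 CPM (SD, n = 4) against 78.9 to 258 CPM. Gria1 exceeded the brainstem, striatum, and cortex and was lower than in the hippocampus, by 0.66 ± 0.08 (SE) on the log2 scale. Cacng5, an auxiliary AMPA subunit, was at 58.0, 61.5, 65.7, and 67.0 CPM against 6.19 to 16.9 CPM in all other libraries, and Cacng2 (stargazin) was higher by at least 0.57 on that scale. The auxiliary genes Cacng3, Cacng8, Cnih3, Gsg1l, and Shisa7 were lower. Shisa6 exceeded 3 regions, and its log2 difference from the hippocampus was 0.23 (95% interval -0.06 to 0.52).

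The GABA-A receptor genes were split by subunit. Gabra6, Gabrb2, and Gabrd were among the higher ones, and Gabra5, Gabra3, Gabrg3, and Gabrr3 were lower, of 18 tested, and the call of Gabrr3 was lost without the hippocampus of WT-70. Gabrd, the subunit of extrasynaptic receptors of granule cells, averaged 185 ± 10.9 CPM (SD, n = 4), and the striatum was nearest at 121 ± 20.8 CPM. Gabra5, which forms extrasynaptic receptors in the hippocampus, was at 1.20, 1.20, 0.681, and 0.731 CPM in the cerebellum of the 4 mice. The hippocampus was highest, at 148.96 to 186 CPM, and the brainstem was at 44.8 to 49.2 CPM, the striatum at 31.9 to 51.7 CPM, and the cortex at 54.3 to 69.3 CPM. Per length, Gabra6 led in the cerebellum at 387 FPKM, with Gabrd at 64.5 and Gabrb2 at 44.9 FPKM. In the brainstem Gabra3 led the alpha subunits, at 38.1 FPKM. Neither GABA-B receptor gene was regional.

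**Figure D4:**
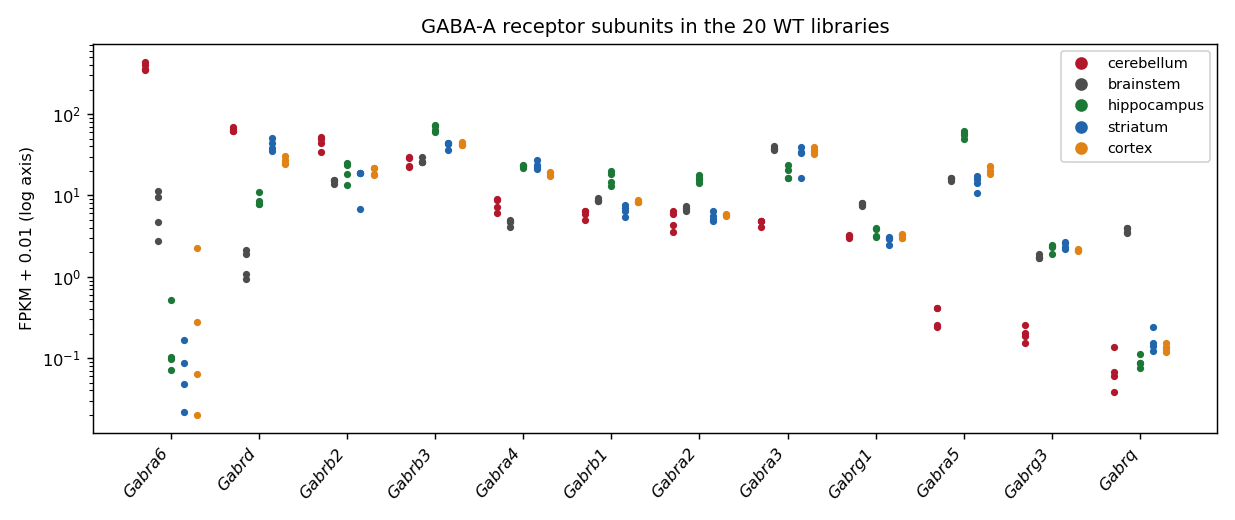
Points are the FPKM of the GABA-A receptor subunit genes reported here in each of the 20 WT libraries by region, on a logarithmic axis with 0.01 FPKM added, ordered by the cerebellar mean. Gabra6 averages 387 FPKM in the cerebellum and 7.08 FPKM or less in each other region, and Gabra5 and Gabrg3 are lowest in the 4 cerebellar libraries.

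Receptors for monoamines, acetylcholine, and neuropeptides were lower or were not regional, with few exceptions. None of 13 tested serotonin receptor genes was higher and 9 were lower. Htr3a, the serotonin-gated channel, was at 0.178, 0.0652, 0.0769, and 0.0665 CPM in the cerebellum and at 2.79 CPM or more in every other library. Htr1a averaged 0.426 ± 0.0564 CPM (SD, n = 4) against 10.1 to 41.0 CPM. Of 5 tested muscarinic receptor genes 4 were lower, Chrm1 at 0.414 CPM on average against 1.81 CPM in the brainstem and 174 to 202 CPM in the forebrain regions. The dopamine receptor gene Drd2 averaged 0.537 CPM against 2.28 CPM or more elsewhere, and Drd1 differed from the brainstem by -0.83 (95% interval -1.86 to 0.20) on the log2 scale and passed without the striatum of WT-220.

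Of 40 tested neuropeptide receptor genes, 21 were lower and 2 were higher. Ntsr1, a receptor for neurotensin, was at 0.0148, 0.0217, 0.110, and 0.0133 CPM in the cerebellum of the 4 mice, and at 2.90 CPM or more in every other library. Mc4r, the melanocortin receptor that acts in appetite, was at 0.0266 to 0.0445 CPM against 1.32 CPM or more. Both receptors were thus represented by a few read pairs in each cerebellar library, and their fitted log2 differences rest on those. The 2 that were higher were Crhr1, a receptor for corticotropin-releasing hormone, and Vipr2, a receptor for vasoactive intestinal peptide. Crhr1 averaged 77.5 ± 11.1 CPM (SD, n = 4) against 10.4 to 33.6 CPM, and Vipr2 averaged 10.2 ± 2.52 CPM against 0.589 to 4.18 CPM. The cannabinoid receptor gene Cnr1, which acts at parallel fiber terminals, averaged 571 ± 52.4 CPM against 88.8 to 228 CPM. Oprd1, Oprk1, Oprl1, and Oprm1, the opioid receptor genes, were all lower, and the call of Oprk1 was lost without the hippocampus of WT-70 and that of Oprm1 on 1 strand. Chrnb2 and P2rx4 were the single higher members of the nicotinic and purinergic families. Of 12 tested nicotinic genes 5 were lower (41.7%), and of 17 tested adenosine and purinergic genes 7 were lower (41.2%).

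Among transmitter genes, the cerebellin family of 4 was split in pairs. Cbln1 was at 825, 829, 859, and 776 CPM in the cerebellum of the 4 mice, 67.1 to 88.8 CPM in the brainstem, and 37.6 CPM or less in the forebrain regions. Cbln3 was higher as given above. Cbln2 was at 0.356, 0.141, 0.198, and 0.253 CPM in the cerebellum and at 7.11 CPM or more in every other library, and Cbln4 averaged 1.5 CPM against 14.6 to 36.5 CPM. Per length, Cbln3 and Cbln1 stood at 316 and 271 FPKM in the cerebellum, and Cbln4 and Cbln2 at 0.517 and 0.0818 FPKM. In the brainstem all 4 lay between 6.34 and 25.3 FPKM.

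The genes for glutamate release and uptake had 2 of 11 tested members higher and 5 lower. Slc1a6, the glutamate transporter of Purkinje cells, was at 143, 132, 136, and 138 CPM in the cerebellum and at 5.61 to 14.8 CPM in all other libraries. Slc1a3, the glial transporter that is abundant in Bergmann glia, was at 1480, 1498, 1576, and 1681 CPM against 227 to 284 CPM in the brainstem and 515 to 723 CPM in the forebrain regions. Slc1a2, the other main glial transporter, was lower, at 915 ± 92 CPM (SD, n = 4) against 1417 to 2997 CPM, and Slc1a1 and Glul were lower too. Slc17a7, the vesicular transporter of granule cells, averaged 426 CPM, above the brainstem at 92.7 CPM and below the forebrain regions at 1184 to 1599 CPM. It is among the forebrain excitatory neuron markers whose sums in the striatal libraries lay mostly near those of the cortex (above). Slc17a8, which loads glutamate in some interneurons and serotonergic neurons, averaged 0.124 CPM against 3.53 CPM or more.

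Of the genes for GABA and glycine, Gad1 and the transporter gene Slc6a12 were among the higher ones and Slc6a11 was lower, of 10 tested, and the call of Slc6a12 was lost under 6 alternatives, among them DESeq2 and the block by mouse without the cortex of WT-221. Gad1, which makes GABA, averaged 668 ± 38.1 CPM (SD, n = 4) in the cerebellum, and the striatum was nearest at 503 ± 77 CPM. Slc6a5, the glycine transporter of Golgi cells and brainstem neurons, averaged 42.6 CPM, above 0.546 CPM or less in the forebrain regions and below 578 CPM in the brainstem. Among monoamine and acetylcholine genes 1 of 19 was higher. This was Hdc, which makes histamine, at 6.98, 6.72, 6.18, and 6.69 CPM against 1.09 to 4.87 CPM in all other libraries, and it no longer passed where a 2-fold change was tested. Pnmt had no count in any cerebellar library and averaged 0.522 CPM or less elsewhere, and Tph2, Slc6a3, and Maob were also lower, and the call of Slc6a3 was lost under 8 alternatives, that block among them.

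Of 31 tested neuropeptide precursor genes 12 were lower and 1, Gnrh1, was higher, at 0.895 CPM on average against 0.203 to 0.612 CPM, and its call was lost under 8 alternatives, 5 of which left out 1 library. Sst, the somatostatin precursor, was at 2.18, 1.22, 1.24, and 1.38 CPM in the cerebellum, 56.0 to 62.7 CPM in the brainstem, and 141 to 272 CPM in the forebrain regions. Its log2 difference from the brainstem was -5.33 ± 0.16 (SE). Vip, the precursor of vasoactive intestinal peptide, was at 0, 0.109, 0.0330, and 0.0798 CPM against 3.67 CPM or more elsewhere. Pdyn, the dynorphin precursor, was at 0.163, 0.141, 0.0769, and 0.0532 CPM against 5.19 CPM or more. Tac1, Tac2, Cartpt, Crh, Grp, and Vgf were lower as well. Cck and Npy were lower than in the 3 forebrain regions and higher than in the brainstem, by 1.06 ± 0.18 and 0.50 ± 0.13 (SE) on the log2 scale.

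Among all genes with a mean of at least 5 CPM in the cerebellum, the largest smallest difference upward belonged to Gm13944, an antisense RNA gene on chromosome 2, at 11.2, 9.91, 9.49, and 10.5 CPM in the cerebellum and 0.158 CPM or less in every other library. It was followed by Sycp1, Pcp2, Cnpy1, Nrk, Ltbp2, the lincRNA gene Gm39465, and Ppp1r17. Reads were counted without regard to strand, so reads of Gm13944 or Gm39465 and of a gene that overlaps either cannot be told apart. Sycp1, known as a protein of the meiotic synaptonemal complex, was at 38.1, 35.8, 34.8, and 38.7 CPM in the cerebellum and 0.950 CPM or less elsewhere. Cnpy1, a gene of the midbrain and hindbrain boundary, was at 531, 571, 636, and 578 CPM, and Ppp1r17, a phosphatase inhibitor of Purkinje cells, was at 299, 298, 317, and 328 CPM. The kinase gene Nrk was at 74.0 to 93.3 CPM and the matrix gene Ltbp2 at 40.4 to 54.2 CPM, against 2.27 and 1.15 CPM or less in all other libraries.

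Among genes with a mean of at least 5 CPM in each other region, the 8 with the largest smallest differences downward were led by Crhbp, which binds corticotropin-releasing hormone. It was at 0.0889, 0.0761, 0.0769, and 0.0532 CPM in the cerebellum, 5.59 to 6.56 CPM in the brainstem, and 11.6 to 29.9 CPM in the forebrain regions. Kcng1, Pdyn, Gabra5, Sst, and Cbln2, given above, came next. Lamp5, a membrane protein of some interneurons, was at 1.18 to 1.69 CPM against 35.7 to 309 CPM, and the heparan sulfate sulfotransferase gene Hs3st4 was at 0.674 to 1.04 CPM against 21.8 to 112 CPM. Only Crhbp, Lamp5, and Hs3st4 of these 8 lie outside the families of channels, receptors, and transmitters.

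Among genes that passed against exactly 3 regions, the brainstem was most often the exception. Over all genes tested, however, fewer differed from the hippocampus (14120) than from the brainstem (14513). Of 2625 genes higher than in exactly 3 regions, the brainstem was the exception for 1378, the hippocampus for 918, the striatum for 187, and the cortex for 142. In 500 of the 1378 the brainstem was significantly higher than the cerebellum. Of 2668 genes lower than in exactly 3 regions, the brainstem was the exception for 1612 and the hippocampus for 655, and the cortex and the striatum (180) for the rest. Among the families, 41 of 64 such higher members and 66 of 103 such lower members fell short in the brainstem. Over all 3800 higher genes the nearest region was the hippocampus in 39.2% and the brainstem in 38.6%, and over all 2990 lower genes it was the brainstem in 49.03%. Of the 1112 genes at least 2-fold higher, the nearest region was the brainstem in 45.2% and the hippocampus in 30.3%, and of the 1319 at least 2-fold lower it was the brainstem in 52.8%. The libraries of the striatum and cortex were shallower than the others and differed in further measures given below, whose part was not tested. With libraries thinned to equal depth, the counts of genes short in the brainstem alone stayed within 1.5 times of 1378 and 1612. The part of depth in the other counts was not tested. Nor was that of the forebrain excitatory neuron markers in the striatal libraries, given above.

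Cell type markers were read as whole lists. All 8 granule cell markers, all 10 Purkinje cell markers, and all 6 Bergmann glia markers were higher than in all 4 regions. Granule cell markers summed to 5680 to 6935 CPM in the cerebellum. Car8, a Purkinje cell gene, averaged 2296 ± 103 CPM (SD, n = 4) against 50 CPM in the brainstem, and Gdf10, of Bergmann glia, averaged 165 ± 9.04 CPM against 12.4 CPM or less in each other region. Of 6 markers of molecular layer interneurons, Prkcd, Kit, Tfap2b, and Pvalb were higher, and Sorcs3 was at 27.5 CPM in both the cerebellum and the brainstem. Of 4 unipolar brush cell markers, 3 were higher, Eomes and Calb2 among them. None of the 4 Golgi cell markers was higher, and Sst was lower. Several of these markers are also family members described above, so the lists are not independent of them. The lists were also chosen with earlier results of these data known, so their counts are a description and not independent support. Over all genes tested, 17.1% were higher and 13.5% lower.

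Markers of glia and vessels gave another pattern. All 4 microglial markers were lower than in all 4 regions and summed to 58.2 to 64.8 CPM in the cerebellum, 118 to 138 CPM in the brainstem, and 188 to 268 CPM in the forebrain regions. Csf1r, a receptor that microglia need to survive, averaged 27.3 CPM against 55.1 to 114 CPM. Of 3 markers of oligodendrocyte precursors, Pdgfra and Cspg4 were lower. None of the 6 oligodendrocyte, 4 astrocyte, 4 endothelial, 6 choroid plexus, or 4 blood markers was regional in either direction. Slc1a2, Glul, P2ry12, P2ry13, Olig1, Olig2, Sox8, and Sox10 among the lower family members are known as genes of glia, and the part of glial cell number in their values was not tested.

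**Figure D5:**
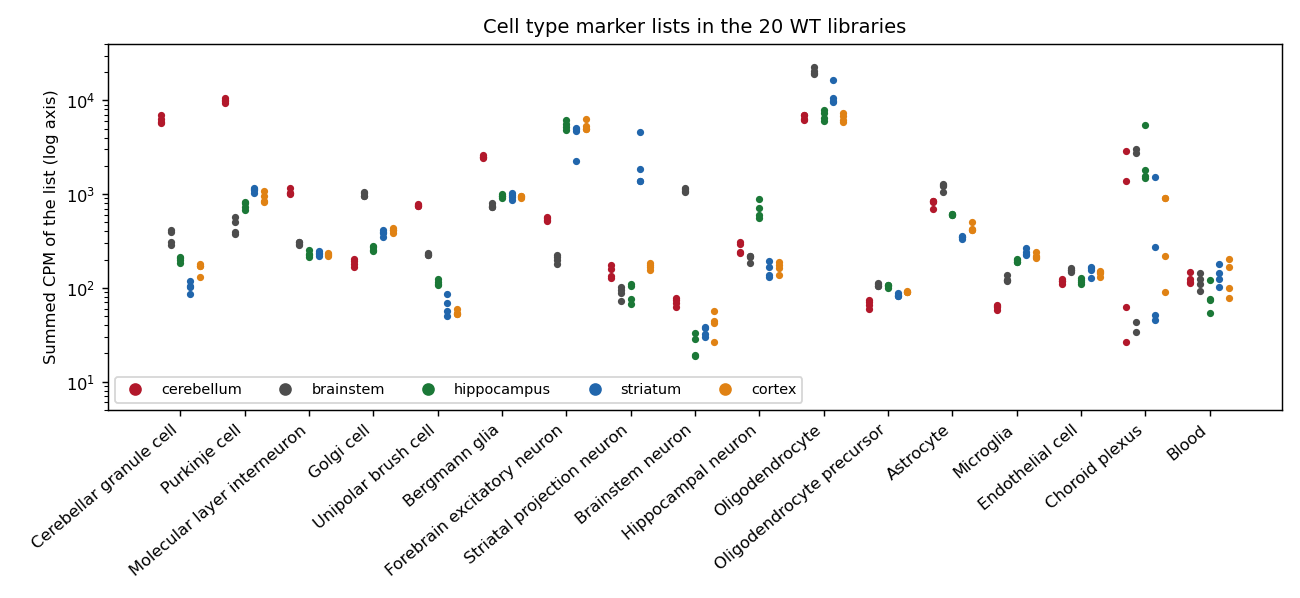
Points are the summed CPM of the markers of each cell type in each WT library by region, on a logarithmic axis. Granule cell, Purkinje cell, and Bergmann glia sums are highest in the 4 cerebellar libraries, and microglial sums are lowest there.

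The same rule was applied to the mutant mice of the series, which were not used to choose the WT regional genes. The Atxn1_154Q/2Q mice carry a lengthened CAG repeat in 1 Atxn1 allele, and in the Atxn1_154Q[V591A;S602D]/2Q mice the same allele also carries a pair of changes made to prevent binding to the repressor CIC. In 20 libraries of Atxn1_154Q/2Q mice, 2888 of the 3800 higher genes (76% of the WT list and 87.3% of the mutant list) and 2550 of the 2990 lower genes (85.3% and 75.8%) were regional in the same direction. In 19 libraries of Atxn1_154Q[V591A;S602D]/2Q mice the shared genes numbered 3085 higher (81.2% and 89.3%) and 2601 lower (87% and 77.2%). Of the 50 transcription factors that were higher in WT mice, 42 and 46 were higher in the 2 mutant groups in that order, and of the 71 receptors that were lower, 55 and 61 were lower. The files of 1 cortical library in each mutant group are named for the other group, and the labels were followed. Without these libraries, 3067 higher and 2411 lower genes were shared with the first group and 3245 and 2442 with the second. Without the hippocampus library of mouse 76, the first group shared 2875 and 2538. These shares compare calls, and whether a regional difference itself changed with genotype was not tested.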

How the data were processed

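PolyA RNA of 5 brain regions from 4 WT mice was measured in 20 libraries. Reads had been trimmed (Trimmomatic 0.36) and aligned to GRCm38.p6 by STAR 2.7.2d, guided by GENCODE M18. The deposited values are STAR's raw counts of read pairs per gene, with and without regard to strand, which the authors did not normalize before deposit. Between 49.0% and 50.1% of the stranded counts lay on the first strand, so the unstranded counts were used. The share was 49.0% to 49.7% in the cerebellum, brainstem, and hippocampus and 50.1% in every striatal and cortical library. Left out were 4 summary lines and a line for 1 human gene, and symbols and positions from GENCODE M21 (GRCm38) were matched for 54165 of 54232 mouse genes. Read pairs on no gene were 5.98% to 9.15% of the pairs in the libraries of the cerebellum, brainstem, and hippocampus. In the striatum and cortex they were 3.92% to 5.15%. The striatal and cortical libraries thus differed from the rest in more than depth. The part of these differences in the comparisons was not tested.

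Genes were kept by filterByExpr, TMM factors scaled the libraries, and the 5 regions were fitted together over all 20 WT libraries with edgeR 4.0.16 in R 4.3.3 (glmQLFit, glmQLFTest), with Benjamini-Hochberg adjustment over the 22200 genes of each comparison and a threshold of 0.05. SE is the absolute log2 difference divided by the square root of F, 95% intervals are 1.96 SE to each side, and FPKM is CPM per kilobase of joined exons. The scripts were tested on simulated data. The labels give each mouse number all 5 regions, which pairs the libraries, apart from the doubt on the cortex of WT-221. Deviations from the region means correlated with a median of 0.00242 over 40 pairs of libraries with the same mouse number (0.0186 over 36 without the cortex of WT-221) and 0.0129 over 120 pairs from different mice.

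The members, families, and marker lists were chosen with earlier results of these data known. Named genes are the 3 markers, the 5 higher and 4 lower regional genes of each class with the largest smallest difference (mean of at least 1 CPM), the 8 in each direction over all genes (at least 5 CPM), regional family members, members that fell short in 1 comparison, listed cell type markers, and Xist and Ddx3y. Some of these genes are not reported here. Alternatives were DESeq2 1.42.0, other scalings, no filter, mouse as a block, fits of 2 regions, thinned counts, 1 strand, a test against a 2-fold change, and leaving out each library in turn. Added after the data were seen were the mouse block without the cortex of WT-221 and the Ttr level as a covariate. So was leaving out that library together with the striatum of WT-220.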

Additional observations from a re-analysis of the deposited data

Results flagged for a closer look

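In a group of 4 libraries, a value was singled out where its gap to the nearest other value was a large share of the whole range (Dixon's test at the 95% level). Chance singles out about 1 in 20 groups, and 14 of 139 groups were singled out here. Among the named genes, Pcp2 was at 147.56 CPM in the cerebellum of WT-70 and at 72.7 to 85.0 CPM in the other 3 mice. The others were low in the cerebellum, where Ntsr1 was at 0.10984 CPM in WT-220 and Htr3a at 0.17784 CPM in WT-70. In each of these 3 genes all cerebellar libraries stayed on the same side of every library of the other regions.

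In the striatum, WT-220 stood apart in 3 marker sums. Its forebrain excitatory neuron markers summed to 2229.7 CPM (4663 to 5091 CPM in the other 3 mice), its striatal neuron markers to 4616.9 CPM (1384 to 1856 CPM), and its oligodendrocyte markers to 16570 CPM (9708 to 10713 CPM). Choroid plexus markers summed to 5418.4 CPM in the hippocampus of WT-77 (1481 to 1793 CPM in the others) and to 1504.9 CPM in the striatum of WT-70 (45.0 to 275 CPM).

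Astrocyte markers summed to 699.94 CPM in the cerebellum of WT-77 (833 to 852 CPM in the others) and to 502.21 CPM in the cortex of WT-220 (414 to 428 CPM). Unipolar brush cell markers summed to 59.578 CPM in the cortex of WT-77 (53.0 to 53.3 CPM), and hippocampal markers to 183.63 CPM in the brainstem of WT-70 (214 to 219 CPM). Xist was at 473.19 CPM in the cortex library of WT-221 and at 0.379 to 4.42 CPM in the other cortex libraries. Ddx3y was at 62.24 CPM in the striatum of WT-77 (71.9 to 72.8 CPM).

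The count files hold 1 line for a human gene, which was left out of all comparisons, and more than 3 counts on it were found in 7 WT libraries. These were 10, 52, and 30 counts in the cerebellum of WT-70, WT-220, and WT-221, 6 in the brainstem of WT-220, 4 in the hippocampus of WT-70, 7 in the striatum of WT-70, and 7 in the cortex of WT-221.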

How the results depend on the processing

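The counts of regional genes kept within 1.5 times of 3800 higher and 2990 lower under every alternative but a test against a 2-fold change. DESeq2 gave 3590 and 3228, upper quartile scaling 3422 and 3287, total library size 4203 and 2704, no filter 3799 and 2774, fits of only the 2 regions compared 3537 and 2770, libraries thinned to equal depth 3340 and 2705, and 1 strand 3572 and 2897. With the mouse as a replicate block they were 3863 and 3039, and the block changed the call of no gene named here. The block without the cortex of WT-221, whose mouse number is in doubt, gave 3510 and 3209, and Slc6a12 and Slc6a3 lost their calls, which leaving out that library alone did not do. Leaving out each library in turn gave 3451 to 3924 higher and 2725 to 3276 lower. The share of higher genes among regional genes was 56.0%, and 51.0% to 60.9% under other scalings, which moved the median log2 difference by at most 0.100.

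Tested against a 2-fold change, 723 genes were higher and 769 lower than in all 4 regions. This test called 1490 higher and 2149 lower than in the brainstem, 1561 and 2453 for the hippocampus, 2471 and 2986 for the striatum, and 2357 and 2724 for the cortex. Transcription factors then had 25 higher and 12 lower, channels 9 and 27, receptors 8 and 43, and transmitter genes 4 and 15, and 374 higher and 823 lower genes fell short in the brainstem alone. The test asks for more than a difference from 0, so fewer genes can pass.

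Of 152 regional genes named in the text, 143 had a value in all 32 other alternatives, and 137 of these passed in each. Another 6, Cbln3, Ppp1r17, Tfap2c, Neurod4, Pnmt, and Dlx3, had no value in some alternatives and passed in the rest. The other 9 lost the call at least once. En1 did with DESeq2 (smallest log2 difference 1.15), Oprm1 on 1 strand (-0.23), and Oprk1 and Gabrr3 without the hippocampus of WT-70 (-0.63 and -1.60). Nhlh1 was lost under 6 alternatives (-2.32 to -1.88), 4 of which left out 1 library (the cerebellum of WT-70, WT-220, or WT-221, or the brainstem of WT-77). Atoh8 was lost under 6 (0.33 to 0.39), 3 of them without the striatum of WT-70, WT-77, or WT-220. Slc6a12 was lost under 6 (0.48 to 0.62), 3 of them without the cerebellum of WT-221 or the brainstem of WT-70 or WT-77. Slc6a3 was lost under 8 (-1.80 to -1.26), 5 of them without the cerebellum of WT-77 or WT-221, the striatum of WT-70 or WT-221, or the cortex of WT-70. Gnrh1 was lost under 8 (0.39 to 0.56), 5 of them without the cerebellum of WT-77, WT-220, or WT-221 or the hippocampus of WT-77 or WT-221. Drd1 passed in all 4 comparisons without the striatum of WT-220 (-0.84), without it and the cortex of WT-221 (-0.88), with DESeq2 (-0.86), and in fits of only the 2 regions compared (-0.82). The causes were not tested. At 3 counts a library, a gene without counts in the cerebellum could be at up to 0.0466 CPM.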
